A study of Mus musculus with 4 samples.

Results

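The subject is a group of 9 mouse genes known to escape X inactivation: Ddx3x, Kdm6a, Utp14a, Eif2s3x, 5530601H04Rik, Pbdc1, Kdm5c, Car5b and Mid1. They were chosen by name from general knowledge of escape, though with earlier results of these data known. Each was placed by the midpoint of its mm10 coordinates in a bin of chromosome X. Pbdc1 and 5530601H04Rik share a bin, so the 9 genes occupy 8 bins, of 588 bins of 250 kb and of 1461 bins of 100 kb that hold data in every matrix. The measurements are Hi-C, an assay that ligates and sequences DNA ends lying close together in the nucleus, made after formaldehyde fixation and a HindIII digest from cells labelled TTF, fibroblasts grown from the tail tips of female mice that carry 1 mus and 1 cas X chromosome. The 4 samples were 2 WT and 2 Sirt7-/- replicates, the latter called KO here, and the values of each genotype were deposited separately for the mus and the cas X chromosome. Sirt7 encodes a sirtuin, an enzyme that takes acyl groups off proteins and works in the nucleus. The labels give neither the age of the animals nor which X copy is inactive, and no RNA was measured, so escape itself and the fibroblast identity of the cells were not checked here. The replicates of a genotype were combined before deposit, so no difference has a spread between replicates, and no test was possible.

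In female mammals the noncoding RNA Xist coats an X chromosome and silences most of its genes, and that copy folds into a pair of large domains that meet at the Dxz4 repeat. Escape genes go on being transcribed from the silenced copy, and on it they tend to lie in accessible chromatin with local contact domains that the rest of the copy lacks. Several of them, Ddx3x, Kdm6a, Eif2s3x and Kdm5c among them, keep a partner gene on the Y chromosome and act in basic steps of gene expression.

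Along the chromosome the genes lie far apart (mm10). Ddx3x, an RNA helicase gene, spans chrX:13280496-13293988 on the plus strand, and Kdm6a, which encodes a demethylase that removes a repressive histone mark, spans chrX:18160862-18279936 on the plus strand. Utp14a, which encodes a factor of small ribosomal subunit assembly, spans chrX:48256934-48282450 on the plus strand and is the third member left of Dxz4, whose host transcript 4933407K13Rik spans chrX:75725458-75764699. Right of Dxz4 lie Eif2s3x (chrX:94188709-94212651, minus strand), a subunit of the factor that brings the initiator tRNA to the ribosome, and the noncoding RNA gene 5530601H04Rik (chrX:105040854-105070124, minus strand). Pbdc1 (chrX:105079731-105117094, plus strand) follows directly, and Kdm5c (chrX:152233198-152279102, plus strand) encodes a demethylase that acts on a histone mark of active promoters. Car5b (chrX:163976822-164028010, minus strand) encodes a mitochondrial carbonic anhydrase. Mid1 (chrX:169685199-169990798, plus strand), a gene of 305.6 kb for a microtubule-bound ubiquitin ligase, crosses the boundary of the pseudoautosomal region in laboratory strains and lies at the right end of the covered chromosome.

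A bin is larger than most of these genes, so each value also describes the genes beside them. The Ddx3x bin of 250 kb also holds Nyx, the Kdm6a bin Dusp21, and the Eif2s3x bin Zfx, a transcription factor gene with a Y partner. The Utp14a bin holds Bcorl1, Elf4 and Aifm1 too, the Kdm5c bin Tspyl2 and Gpr173, and the Car5b bin Siah1b and Bmx among others. Magee1 shares the bin of Pbdc1 and 5530601H04Rik, and Mid1 is the only coding gene placed in its bin. Some members cross a bin edge: the start of Kdm5c and the leftmost start of Mid1 lie in the 250 kb bin to the left. So does the end of Car5b, and the end of Kdm6a lies in the bin to the right. The escape-gene bins held from 1 to 5 coding genes with a median of 2, against a median of 1 over all bins.

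The start regions of the genes were rich in CG dinucleotides, the sites of promoter methylation. RefSeq's table of promoters (GRCm38.p6, which is mm10) held all 9 genes with 11 start sites, 3 of them of Mid1, each as 300 bases from 250 before to 50 after the start. Of these 11 promoters, 9 held 10 or more CG, or 81.8%, against 43.5% of all 32851 promoters and 38.6% of the 1223 on chromosome X. Ddx3x held 25, Kdm6a, Utp14a and Eif2s3x 21 each, Pbdc1 20, Kdm5c 13, Car5b 12 and 5530601H04Rik 11, while the 3 starts of Mid1 held 2, 6 and 13. The 250 bases before the start are shown 5′ to 3′ on the gene's strand, with each CG in capitals, for 4 genes: Utp14a and Eif2s3x, which had the highest scores on cas, Kdm5c, with the highest KO score on mus, and Car5b, with the largest difference on cas. They are Utp14a (chrX:48256684-48256933, plus strand), Eif2s3x (chrX:94212652-94212901, minus strand), Kdm5c (chrX:152232977-152233226, plus strand) and Car5b (chrX:164028011-164028260, minus strand).
Utp14a: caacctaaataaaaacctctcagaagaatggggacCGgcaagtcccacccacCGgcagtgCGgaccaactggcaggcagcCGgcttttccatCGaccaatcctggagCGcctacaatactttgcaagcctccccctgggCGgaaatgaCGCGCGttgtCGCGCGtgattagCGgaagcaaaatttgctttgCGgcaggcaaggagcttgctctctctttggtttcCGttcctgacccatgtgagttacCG
Eif2s3x: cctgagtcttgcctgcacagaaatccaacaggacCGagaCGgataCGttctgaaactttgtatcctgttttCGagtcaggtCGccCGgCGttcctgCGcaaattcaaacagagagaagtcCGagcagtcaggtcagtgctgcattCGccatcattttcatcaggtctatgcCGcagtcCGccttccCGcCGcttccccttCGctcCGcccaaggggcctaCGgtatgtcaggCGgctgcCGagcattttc
Kdm5c: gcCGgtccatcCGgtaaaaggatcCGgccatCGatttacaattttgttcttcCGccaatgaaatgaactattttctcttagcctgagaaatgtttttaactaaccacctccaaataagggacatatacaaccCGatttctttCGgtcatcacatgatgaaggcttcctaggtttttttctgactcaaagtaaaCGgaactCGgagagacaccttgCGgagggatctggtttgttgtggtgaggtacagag
Car5b: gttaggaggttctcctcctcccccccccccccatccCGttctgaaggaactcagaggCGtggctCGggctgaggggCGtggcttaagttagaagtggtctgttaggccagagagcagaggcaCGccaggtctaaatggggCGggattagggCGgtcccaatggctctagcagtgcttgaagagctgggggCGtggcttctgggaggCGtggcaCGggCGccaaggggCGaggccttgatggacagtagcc
The YY1 motif, searched as GCCATNTT on both strands, was found in 2 of the 11 promoters, just inside the transcripts of Eif2s3x (from base 16) and Kdm5c (from base 28), and reads on the opposite strand in both. The motif is in capitals in these 20 bases around it.
Eif2s3x YY1 match: ctctccgagcAAGATGGCtg
Kdm5c YY1 match: ctgacaaaccAAGATGGCgg
YY1 matches were present in 6.05% of all promoters and 7.28% of those on chromosome X. A core of the CTCF motif, searched on both strands, was in 0 of the 11, against 2.43% and 1.72%, which says only that these letters are not in the windows.

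The authors deposited correlation coefficients, from -1 to 1, that say how alike the contacts of any 2 bins are. The spread of these values was larger on cas, with an SD over all bin pairs of 0.131 in WT and 0.117 in KO, than on mus, with 0.0682 and 0.0597. It was lower in KO on both copies, and the number of reads behind a matrix or a bin is unknown, so a difference in depth and a difference in folding cannot be told apart. The compartment score used below is the mean correlation of a bin with gene-rich A bins minus that with gene-poor B bins, the classes being the outermost 20% of bins each way on the main axis of variation on cas. Since the classes come from cas, high and low scores there follow in part from that choice, and scores on mus are measured along the cas axis. Of the 8 escape-gene bins, 6 belonged to class A, 0 to class B and 2 (the Kdm6a bin and the Pbdc1 and 5530601H04Rik bin) to neither. Values are from 250 kb bins unless 100 kb is named.

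On the cas chromosome most escape-gene bins sat high on the compartment axis in both genotypes. In WT 7 of the 8 scored above 0, against 35.7% of all bins and 49.0% of bins with a coding gene, and in KO 6 did, against 33.5% and 45.7%. The Utp14a bin scored 0.425 (WT) and 0.375 (KO), which are the 99.5 and 99.7 percentiles of all bins. The Eif2s3x bin scored 0.404 in WT and 0.353 in KO, at the 98.8 percentile in each. These bins were the highest members in both genotypes. Then came Mid1 at 0.297 in WT and 0.245 in KO and Ddx3x at 0.269 and 0.231. Kdm5c scored 0.235 in WT and 0.227 in KO, and Car5b 0.231 and 0.0946. The other histone demethylase gene, Kdm6a, stood near 0, at 0.0580 and -0.00777, and the bin of Pbdc1 and 5530601H04Rik was below 0, at -0.110 and -0.169. The order of the WT scores has no spread to be read against, and the neighbours Kdm5c and Car5b differed in WT by 0.00423, Utp14a and Eif2s3x by 0.0208, and Mid1 and Ddx3x by 0.0279, all less than the median difference between WT and KO. The gaps around Kdm6a were wider, with 0.173 to Car5b and 0.168 to the Pbdc1 bin.

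**Figure D1:**
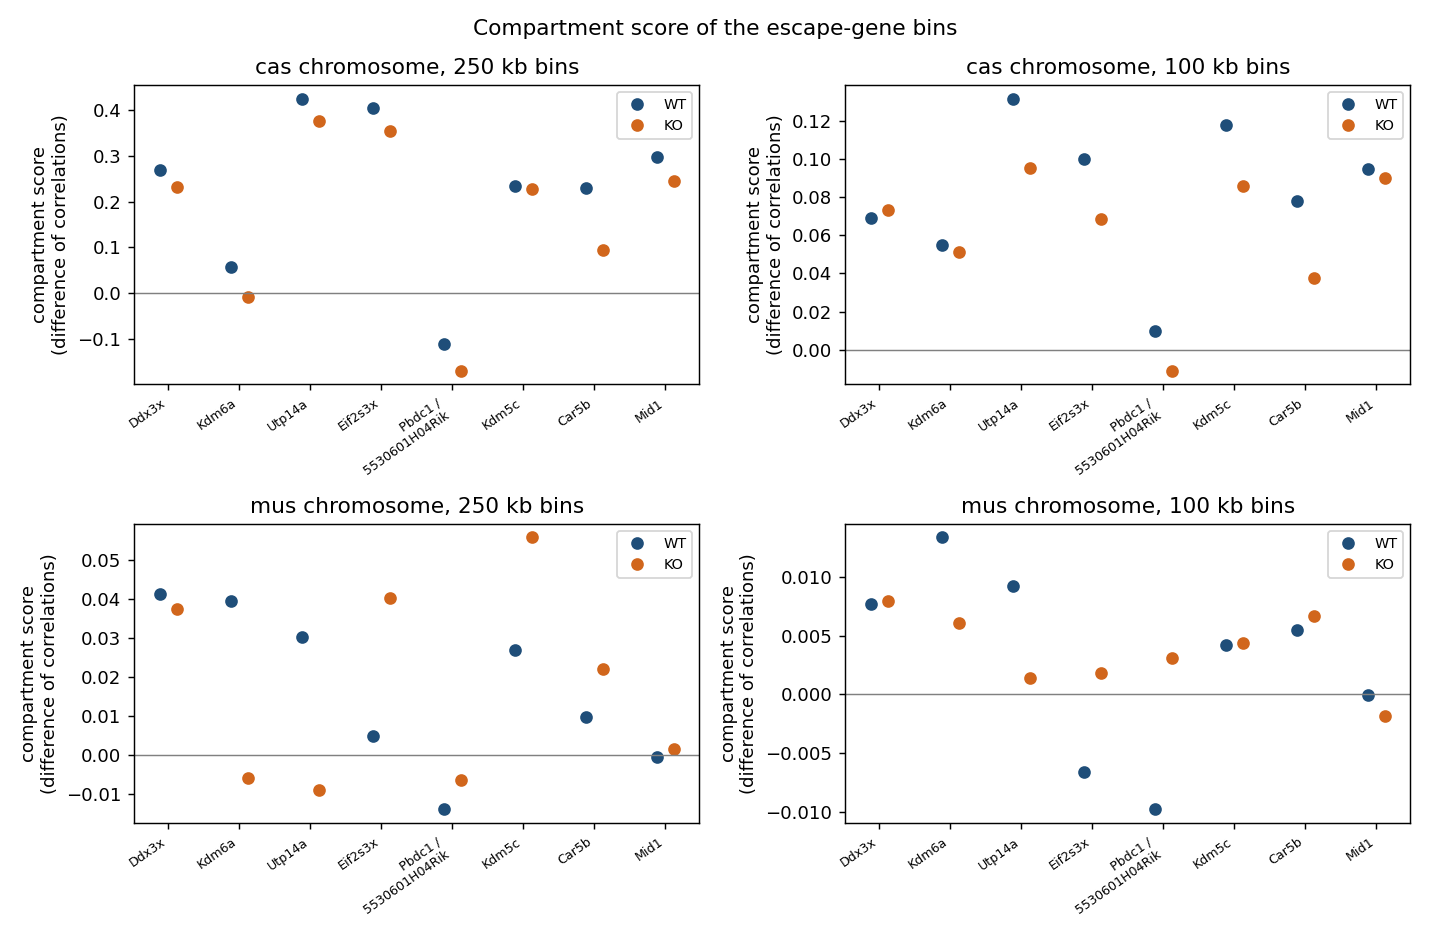
Compartment score (difference of correlations) of the 8 escape-gene bins, in chromosome order, on cas and on mus, in bins of 250 kb and of 100 kb, with WT and KO as separate points. On cas at 250 kb the Utp14a and Eif2s3x bins lie highest, at 0.425 and 0.404 in WT, and each KO point lies below its WT point. The vertical scales of the panels differ, and each point is 1 matrix of combined replicates, so there are no error bars.

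Every escape-gene bin had a lower cas score in KO at 250 kb, 8 of 8 against 39.1% of all bins, with a median difference of -0.0517 against 0.0230 over all bins. High scores were lower in KO all along cas, however: of the bins with a WT score above 0, 73.3% were lower, and of those above 0.2, 85.1%. In 5 of the 8 bins the difference was below -0.05, against 19.2% of all bins, and in 0 it was above 0.05, against 29.4%. Of the 6 escape-gene bins with a WT score above 0.2, 3 were below -0.05, and 40.6% of all bins that high were. Measured as a deviation from the straight line through the KO and WT scores of all bins, whose slope was 0.845, 4 of the 8 bins were below it, against 51.4% of all bins, and the median deviation was 0.00376. The deviations ran from -0.0953 at Car5b to 0.0339 at Kdm5c. In 100 kb bins 5 of the 8 were below the line drawn through those, against 49.8% of all bins, and the median deviation was -0.0134, of the opposite sign.

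Car5b had the largest difference on cas, -0.136, at the 2.04 percentile of all bins, and it lay -0.0953 from the line. Kdm6a followed with -0.0658 and lay -0.0517 from the line, and the Pbdc1 and 5530601H04Rik bin had -0.0584 and -0.0704. These were the lower-scoring members, and Kdm6a went from just above to just below 0. Mid1 differed by -0.0523, Eif2s3x by -0.0511, just past the cut of -0.05, and Utp14a by -0.0499, just short of it. Ddx3x differed by -0.0380 and Kdm5c by -0.00757, and both lay above the line, by 0.00871 and 0.0339. In 100 kb bins, where 41.3% of all bins were lower in KO, 7 of the 8 were, and Ddx3x was higher by 0.00383. Car5b again had the largest difference there, -0.0400 (2.87 percentile), whereas Kdm6a had -0.00340 and Kdm5c -0.0320. The placing of Kdm6a and Kdm5c thus turned on the bin size, which decides how much of the flanking sequence is counted with the gene.

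Most bins beside the escape genes were lower in KO on cas too. Of the 30 bins within 500 kb of a member, 22 were lower in KO, with a median of -0.0369, and of the 15 directly adjacent bins 13 were, where the shares are 39.1% of all bins and 73.3% of bins with a WT score above 0. The exceptions next to a member were the bin right of Kdm5c, which holds Cldn34a and Shroom2 and went from -0.0370 to 0.0851, and the bin right of Pbdc1, with no coding gene, from -0.266 to -0.244. Left of the Kdm5c bin, the bin of the cohesin subunit gene Smc1a and of Iqsec2 went the other way, from 0.413 to 0.315. The cas score thus dropped less steeply across Kdm5c in KO than in WT. That left bin also holds the start of Kdm5c. Placed by its start the gene had a difference of -0.0982 on cas, against -0.00757 by its midpoint. Right of Kdm6a, the Dipk2b bin went from 0.00550 to -0.140, a larger difference than that of Kdm6a itself. Right of Eif2s3x, the Klhl15 bin went from 0.233 to 0.134, and left of Ddx3x, the bin of the deubiquitinase gene Usp9x from 0.344 to 0.296.

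**Figure D2:**
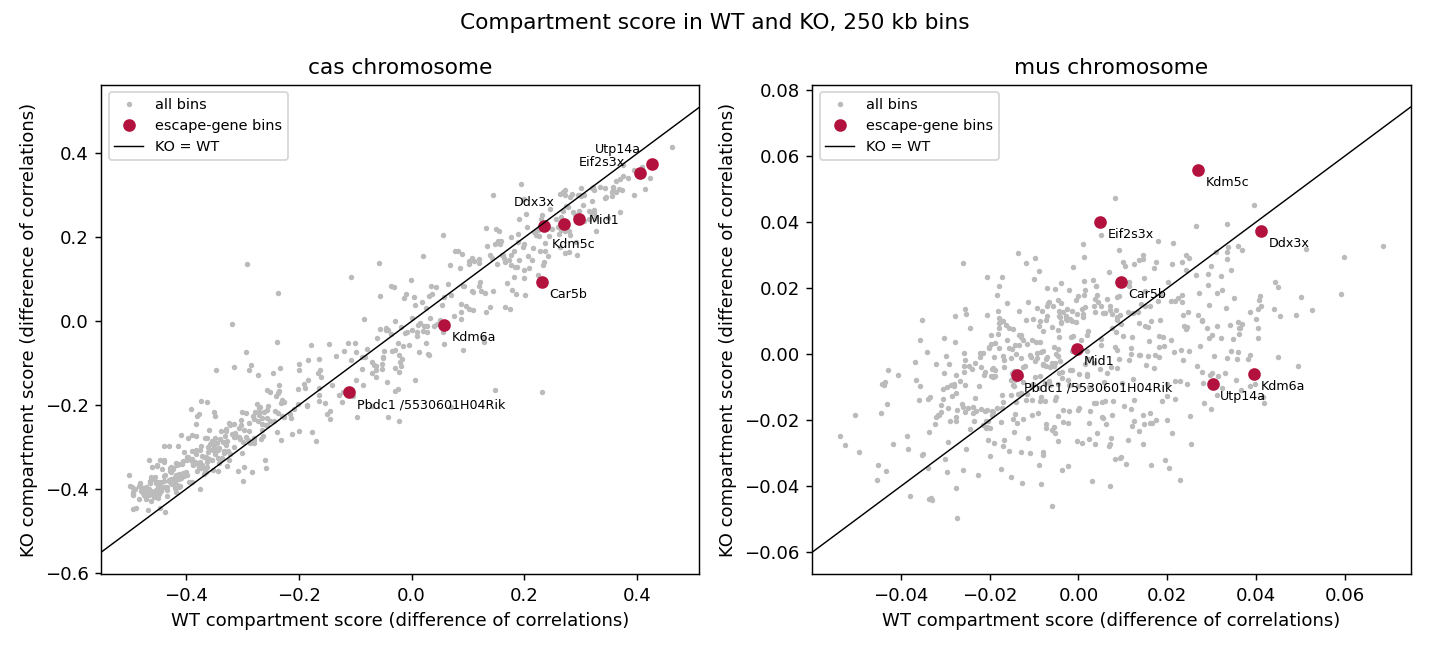
Compartment score (difference of correlations) in KO against WT for all 588 bins of 250 kb (grey) and the escape-gene bins (red), on cas and on mus, with the line of equal scores. On cas all 8 red points lie below the line, Car5b farthest, and on mus Kdm5c has the highest KO score of all bins, 0.0558, while Kdm6a and Utp14a lie below the line.

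On the mus chromosome the scores spanned a much narrower range, from -0.0538 to 0.0687 over all bins in WT, which is in part set by the choice of classes from cas, and the members split into those lower and those higher in KO. Kdm6a scored 0.0395 in WT and -0.00589 in KO, and Utp14a 0.0303 and -0.00902. Ddx3x was high in both genotypes, at 0.0412 and 0.0374, the 97.1 and 98.8 percentiles. These 3 bins lie left of Dxz4 and were lower in KO, as were 85.3% of all bins on that side. Eif2s3x scored 0.00488 in WT and 0.0401 in KO, and Kdm5c 0.0270 and 0.0558, the highest KO score of all 588 bins. Car5b scored 0.00966 and 0.0220, Mid1 -0.000430 and 0.00159, and the Pbdc1 and 5530601H04Rik bin -0.0139 and -0.00639. These 5 bins lie right of Dxz4 and were higher in KO, as were 77.2% of all bins there. In all, 3 of the 8 bins were lower in KO on mus against 47.3% of all bins, 2 were below -0.02 against 21.6% and 2 above 0.02 against 15.5%.

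The largest deviations among the members on mus were those of Kdm5c and Eif2s3x. Against the line through the mus scores of all bins, Kdm5c deviated by 0.0481 and Eif2s3x by 0.0401, the 99.8 and 99.5 percentiles. In 100 kb bins the same measure put them at the 77.5 and 81.1 percentiles, so the position at the far end of the distribution belonged to the larger bins. There the 100 kb scores of Kdm5c were 0.00420 in WT and 0.00443 in KO, and those of Eif2s3x -0.00661 and 0.00186. The Ddx3x score was higher by 0.000255 and the Mid1 score differed by -0.00174 at 100 kb, each opposite to its 250 kb direction. The 100 kb bin of Pbdc1 and 5530601H04Rik went from -0.00980 to 0.00314, at the 97.6 percentile of differences, while its 250 kb difference was at the 60.7 percentile.

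Along this cas axis, the scores of cas and mus stood farthest apart at Eif2s3x and Utp14a, by 0.400 in WT and 0.313 in KO (cas minus mus) at Eif2s3x and by 0.395 and 0.384 at Utp14a. At Kdm6a they were close, with 0.0185 in WT and -0.00188 in KO. The gap at Car5b was 0.221 in WT and 0.0726 in KO, so the copies scored more alike there in KO. The bin of Pbdc1 and 5530601H04Rik was the member with a lower score on cas than on mus in both genotypes, by -0.0964 and -0.162.

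Several escape genes sat on a local peak of the cas score. The local step is the score of a bin minus the mean of the 2 bins on each side (5 on each side at 100 kb), and it could be formed for 7 of the 8 bins, Mid1 being too near the end. In WT cas 6 of 7 steps were above 0 and in KO cas 7 of 7, against 48.2% and 47.1% of all bins and 55.0% and 54.2% of bins with a coding gene. Bins of silenced genes stood on such peaks as well: among those beside an escape gene or with a Y partner 6 of 6 steps were above 0 in WT, with a median of 0.119, and among other silenced genes 8 of 9, with 0.198, beside the escape-gene median of 0.0910. At 100 kb 7 of 8 escape-gene steps were above 0 in WT and 8 of 8 in KO, against 46.8% and 45.4%. The step of Eif2s3x was 0.197 in WT and 0.189 in KO, next to 0.195 and 0.173 for Utp14a, and these were the tallest peaks among the members. The step of Car5b was 0.141 in WT and 0.0564 in KO, the Pbdc1 bin having 0.0769 and 0.0229. In these bins the score was lower in KO relative to the surroundings too, and the Car5b difference was at the 4.87 percentile. Kdm6a had 0.0910 and 0.0979, so its peak stood in both genotypes, and Kdm5c had 0.0688 and 0.0524. Ddx3x lay level with its surroundings, at -0.00729 and 0.00537.

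At 100 kb the peaks of Kdm6a and of Pbdc1 with 5530601H04Rik were narrow and stood in low-scoring surroundings on cas. The Kdm6a bin scored 0.0548 in WT and 0.0514 in KO, between -0.0385 and -0.0335 in the bin 0.2 Mb to its left and -0.00917 and -0.0412 in the bin 0.2 Mb to its right. The bin just left of it, which holds the start of the gene, scored 0.0503 in WT and 0.00390 in KO, and the bin just right -0.00198 and -0.0445. The peak around Kdm6a was thus narrower in KO, with the height of its own bin nearly as in WT. The bin of Pbdc1 and 5530601H04Rik scored 0.00972 in WT and -0.0109 in KO, with -0.0727 and -0.0853 to its left. The bin to its right, which holds the end of Pbdc1, scored -0.00750 and -0.0260, and the next -0.0701 and -0.0722. The raised stretch covered the bins that hold the gene pair, and it was lower in KO than in WT in both of them.

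Kdm5c lay on a slope at 100 kb. Its bin scored 0.118 in WT and 0.0859 in KO on cas, the next bin to the right 0.0820 and 0.0850, and the bin after that 0.0194 and 0.00355. At 0.5 Mb to the right the score was -0.00960 in WT and 0.0323 in KO. Utp14a, by contrast, lay inside a broad plateau, on which the bins from 0.3 Mb left to 0.3 Mb right scored from 0.0974 to 0.133 in WT. Eif2s3x and Zfx shared a peak, with 0.130 in WT and 0.119 in KO in the 100 kb bin of Zfx and 0.1001 and 0.0687 in that of Eif2s3x. The Zfx bin was the higher of these in both genotypes.

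**Figure D3:**
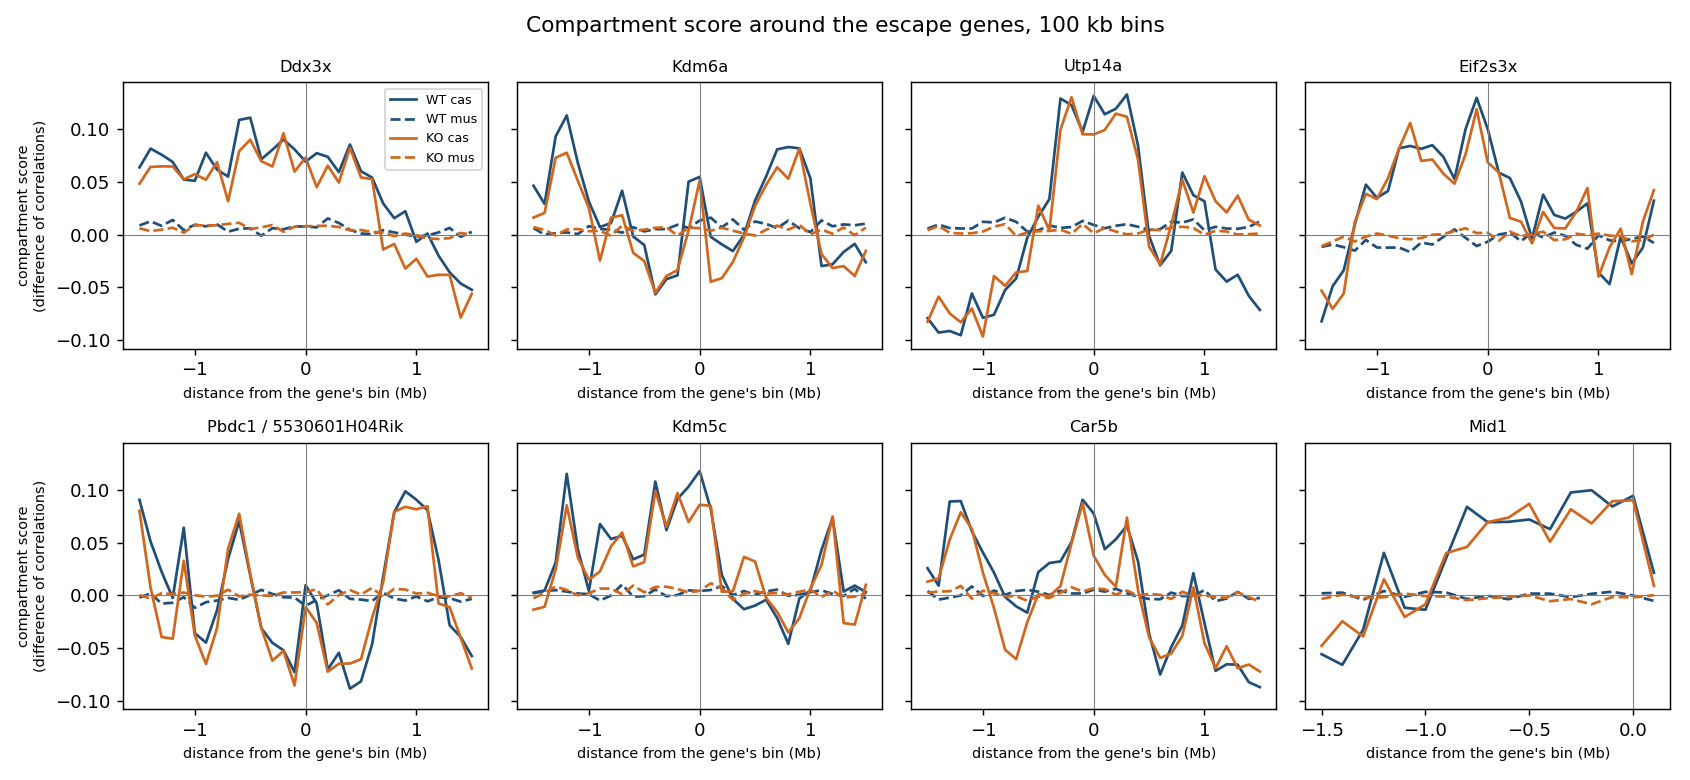
Compartment score (difference of correlations) in 100 kb bins from 1.5 Mb left to 1.5 Mb right of each escape-gene bin, in WT and KO, with cas as solid and mus as dashed lines. Kdm6a and the Pbdc1 and 5530601H04Rik bin show narrow peaks on cas, Utp14a a plateau and Kdm5c a slope, while the mus lines stay near 0.

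On mus the local steps were small, and they changed sign between the genotypes at Kdm6a. Its step was 0.0188 in WT and -0.0183 in KO, with a difference at the 0.696 percentile of all bins, and at 100 kb it was 0.00496 and 0.00226, above 0 in both. Eif2s3x went from 0.00309 to 0.0282 and Kdm5c from 0.0205 to 0.0296, which ranked at the 99.1 and 99.5 percentiles in KO. Ddx3x had 0.0252 in WT, at the 98.8 percentile, and 0.0192 in KO. Counted by sign, 5 of 7 were above 0 in WT and 4 of 7 in KO, against 50.1% and 51.1% of all bins, a count close to the background.

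The correlation of each bin with its direct neighbours showed a different order of the members. Eif2s3x was the most alike to its neighbours on mus, with a mean of 0.294 in WT and 0.212 in KO, the 98.1 and 93.2 percentiles, and 0.202 and 0.126 on cas. Kdm5c was at the other end, with 0.0290 in WT, the lowest of the members on mus and at the 0.170 percentile of all bins, and 0.0989 in KO, beside 0.140 and 0.175 on cas. Kdm6a had 0.0884 and 0.0329 on mus, the latter at the 1.70 percentile, and 0.111 and 0.118 on cas. Kdm5c in WT and Kdm6a in KO were thus the members with the weakest links to their neighbours on mus. Utp14a was 0.254 in WT and 0.3004 in KO on cas and 0.162 and 0.169 on mus, and Mid1, with a neighbour on the left side alone, 0.258 and 0.162 and then 0.142 and 0.0563. Ddx3x was 0.231 and 0.204 on cas and 0.126 and 0.108 on mus, and Car5b 0.138, 0.116, 0.138 and 0.0977 in the same order. The bin of Pbdc1 and 5530601H04Rik was 0.101 and 0.178 on cas and 0.0937 and 0.135 on mus, higher in KO on both copies. Medians over all bins were 0.184 and 0.178 on cas and 0.148 and 0.126 on mus.

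Kdm5c was unlike its right neighbour in particular. On cas it correlated with the Smc1a and Iqsec2 bin on its left at 0.267 in WT and 0.203 in KO, and with the Cldn34a and Shroom2 bin on its right at 0.0128 and 0.147. On mus the left neighbour gave 0.0774 and 0.147, and the right -0.0194 and 0.0504. The right neighbour was the less alike in all 4 matrices, and each pair except the left one on cas had a higher correlation in KO. Kdm6a on mus correlated with the Dipk2b bin on its right at 0.119 in WT and -0.0291 in KO.

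Utp14a and Eif2s3x, the members with the highest cas scores, averaged below 0 on cas with bins from 2 to 50 Mb away. The score and these averages are read from the same correlations, so the low averages follow in part from the high scores. At 10 to 20 Mb, all bins averaged 0.0459 in WT and 0.0443 in KO on cas, while Utp14a averaged -0.156 and -0.125 and Eif2s3x -0.121 and -0.0806. Already at 2 to 5 Mb Eif2s3x averaged -0.138 in WT and -0.104 in KO, whereas the average bin had 0.0941 and 0.0858. From 2 to 50 Mb the averages of both bins were closer to 0 in KO, except that of Eif2s3x at 5 to 10 Mb, with -0.0249 in WT and -0.0263 in KO. The bin of Pbdc1 and 5530601H04Rik was above the average at 10 to 20 Mb in both genotypes, at 0.0695 and 0.0969, and Kdm6a was near 0 from 20 to 50 Mb in WT, at -0.00266, with 0.0429 in KO. On mus, within 2 Mb, Eif2s3x averaged 0.187 and 0.167, against 0.139 and 0.120 over all bins. Beyond 50 Mb it averaged -0.0638 in WT and -0.0104 in KO there, the lowest of the members in both. Kdm5c on mus had little correlation even at 2 to 5 Mb, 0.0350 in WT and -0.0149 in KO, where all bins averaged 0.113 and 0.0945.

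**Figure D4:**
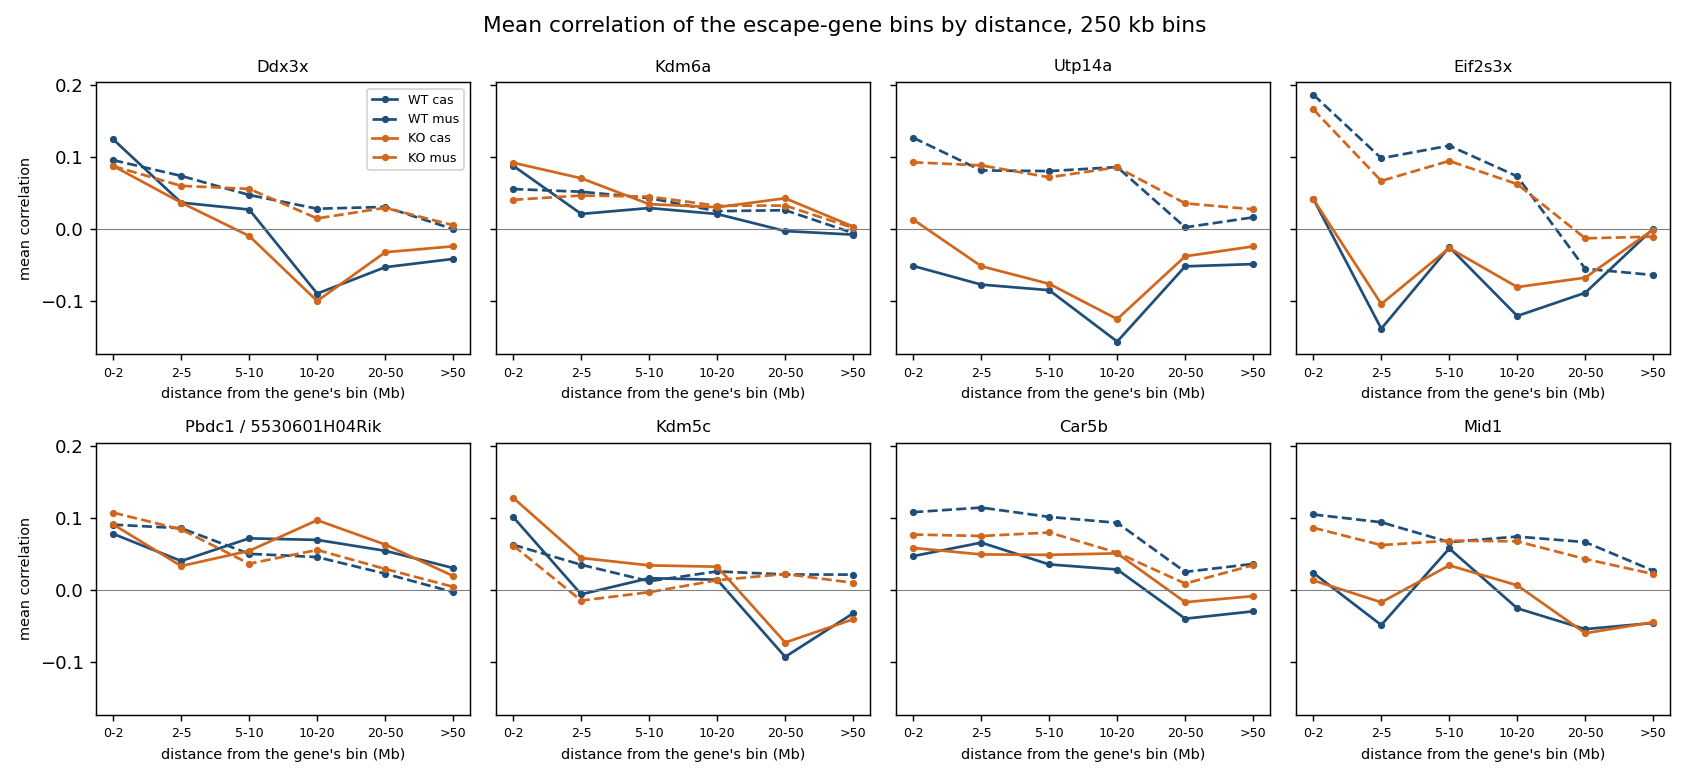
Mean correlation of each escape-gene bin of 250 kb with other bins, by distance class in Mb, for WT and KO (colours) and for cas (solid) and mus (dashed). The cas lines of Utp14a and Eif2s3x lie below 0 from 2 to 50 Mb, and on mus the lines of all 8 bins are above 0 within 2 Mb and lower beyond 50 Mb.

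On cas, escape-gene bins were more alike to each other than bin pairs at the same distances, as were bins of silenced genes. On mus the escape-gene bins were not. Of the 8 bins, 6 are in class A, which was drawn from the same cas matrices, so likeness on cas follows in part from that placing. Of the 28 pairs of escape-gene bins, 21 in WT and 19 in KO lay above the median of all pairs within 1 Mb of their distance on cas, against 50.0% of all pairs and 46.3% and 45.3% of pairs in which both bins hold a coding gene. On mus 15 did in WT and 12 in KO, against 50.0% again. The mean excess over that median was 0.0688 in WT and 0.0502 in KO on cas, and -0.00146 and -0.00483 on mus. A like excess on cas was measured for silenced genes, of which 15 bins gave 102 pairs. Of these pairs 83 in WT and 89 in KO were above the median on cas, with a mean excess of 0.0910 and 0.0931. On mus 58 of the 102 in WT and 69 in KO were above it, with a mean excess of 0.00625 and 0.0192. At 100 kb 25 of the 28 escape pairs were above the median on cas in each genotype, and 10 in WT and 16 in KO on mus. Of 114 pairs of silenced-gene bins of that size, 97 in WT and 105 in KO were above it on cas, and 62 and 53 on mus. The share of all pairs was not counted at 100 kb.

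On cas the strongest link joined Utp14a and Eif2s3x, across Dxz4 and 45.75 Mb apart, with correlations of 0.299 in WT and 0.271 in KO, the 98.3 and 98.9 percentiles of pairs at like distance. On mus the same pair gave -0.0248 and -0.0183. Utp14a also paired on cas with Mid1, 121.5 Mb away, at 0.194 and 0.204, and with Ddx3x at 0.265 and 0.195. With a mean excess of 0.119 in WT and 0.120 in KO over its 7 pairs, Utp14a was the member most alike to the others on cas in KO. The bin of Pbdc1 and 5530601H04Rik was the least alike, with -0.0530 and -0.0383. On mus the pair of Ddx3x and Utp14a, both left of Dxz4, went from 0.116 in WT to -0.0121 in KO, from the 98.5 to the 33.2 percentile. Eif2s3x and Kdm5c, both right of it and 58.25 Mb apart, went the other way, from 0.0510 to 0.148, the 84.6 and 99.4 percentiles. At 100 kb the Ddx3x and Utp14a pair gave -0.00877 and 0.0124 on mus, and the Eif2s3x and Kdm5c pair 0.0490 and 0.0439.

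**Figure D5:**
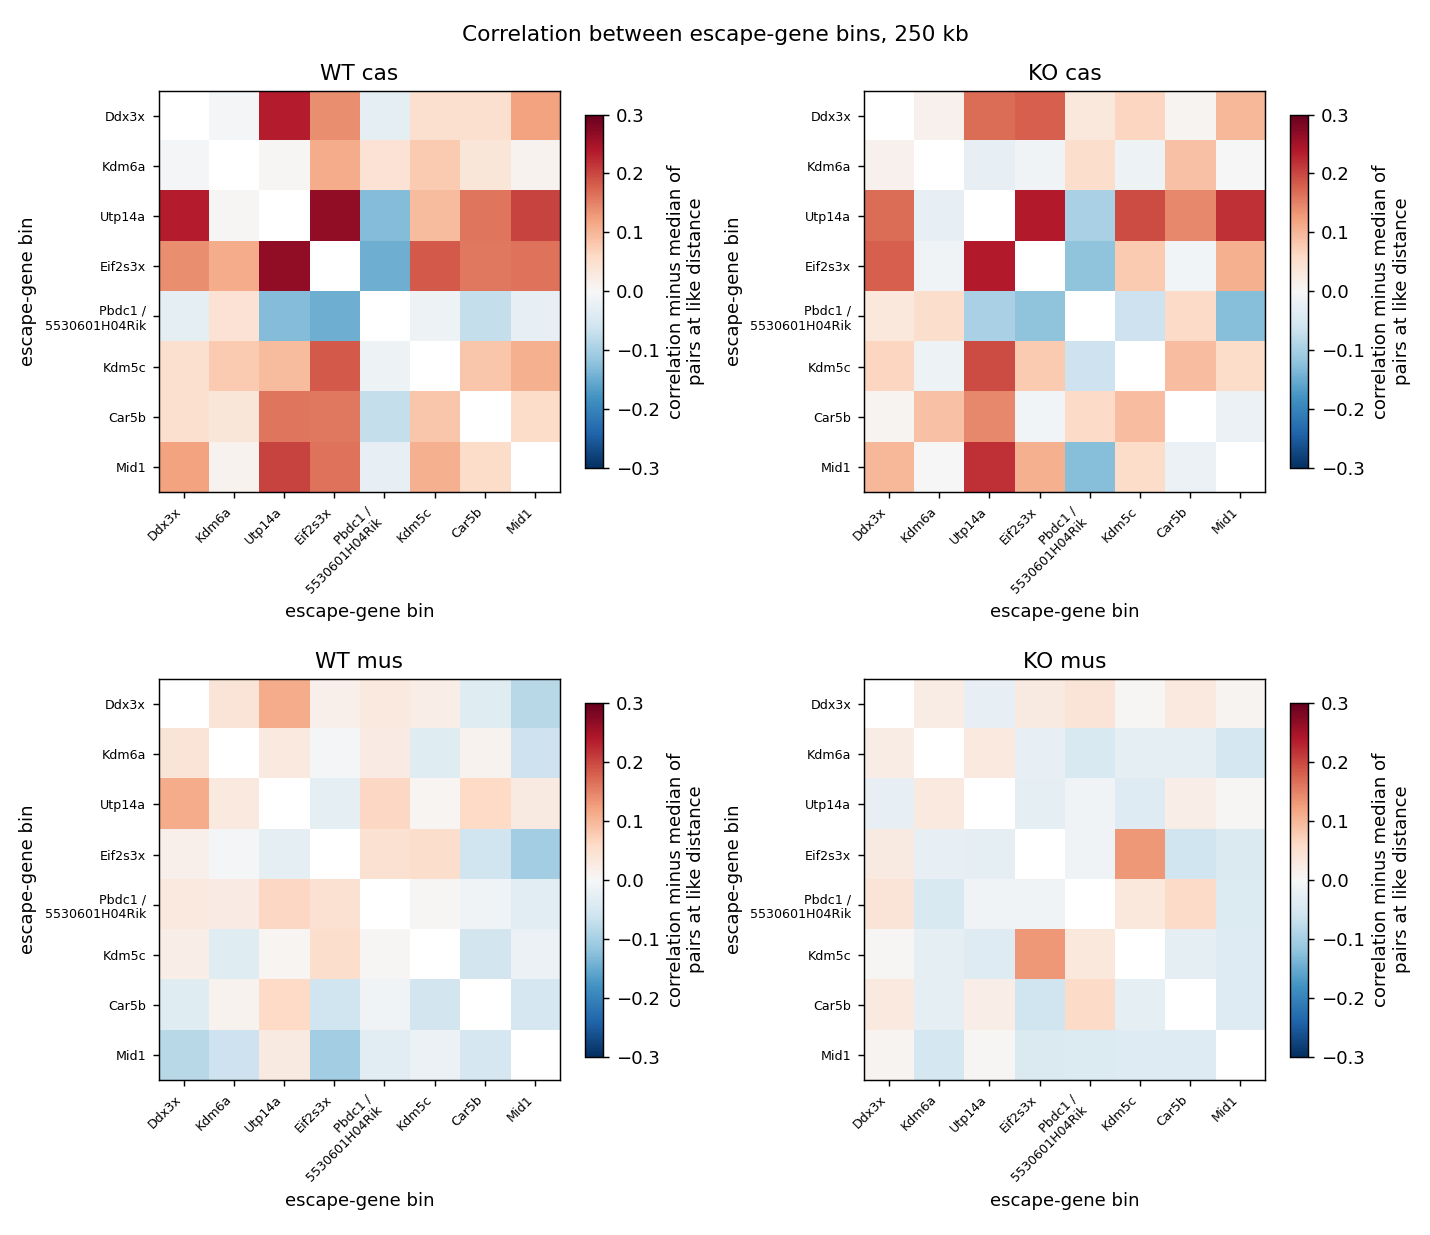
Correlation of each pair of escape-gene bins of 250 kb minus the median of all bin pairs at like distance, in the 4 matrices, on a common colour scale from -0.3 to 0.3. On cas most squares are red, deepest for Utp14a with Eif2s3x, and the row of Pbdc1 and 5530601H04Rik is mostly blue in WT, whereas the mus panels are pale, with Eif2s3x and Kdm5c standing out in KO.

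The bins most alike to each member, at least 5 Mb away and averaged over the genotypes, are given first for cas. For Utp14a it was the bin at 102.0 Mb with Rps4x, a ribosomal protein gene, Pin4, Ercc6l, Rtl5 and Cited1 (0.348 in WT and 0.352 in KO), and for Eif2s3x the bin at 53.0 Mb with Hprt, the purine salvage enzyme gene, and Plac1 (0.355 and 0.388). For Ddx3x it was a bin of 16 coding genes at 74.25 Mb that includes G6pdx, with 0.326 in WT and 0.168 in KO. For Mid1 it was the bin at 48.0 Mb with Apln, directly left of Utp14a, with 0.271 and 0.208. For Kdm5c it was the bin at 163.75 Mb with Ap1s2 and Zrsr2, directly left of the Car5b bin, with 0.231 and 0.151. That bin also holds the end of Car5b. For Mid1 and Kdm5c the closest bin thus lay beside the bin of another member, and the same held for Car5b. For Car5b it was the bin at 169.5 Mb, directly left of the Mid1 bin, with 0.2498 and 0.104. It holds the midpoint of no coding gene, but the leftmost start of Mid1 lies in it. For Kdm6a the match was weak, the bin at 50.75 Mb with Stk26 and Frmd7, with 0.0575 and 0.162, and for the bin of Pbdc1 and 5530601H04Rik it was a class B bin at 85.25 Mb with Fthl17a, with 0.176 and 0.218. On mus the mean correlation of a member with its closest bin ran from 0.108 to 0.188, beside 0.109 to 0.371 on cas. Eif2s3x matched the Pja1 bin at 99.25 Mb (0.235 in WT and 0.141 in KO) and then the Pls3 bin at 75.75 Mb, beside Dxz4, with 0.229 and 0.131. Kdm5c matched the Pdk3 bin at 93.75 Mb, directly left of Eif2s3x, with 0.0554 and 0.160, and was higher there in KO. These likenesses are single correlations of bins that share a matrix.

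How far the whole contact profile of a bin was shared between genotypes and between copies differed widely among the members. Between WT and KO on cas the profile of Utp14a correlated at 0.920 and that of Eif2s3x at 0.915, and those of Mid1, Ddx3x and Kdm5c at 0.868, 0.861 and 0.830. Car5b gave 0.643, the bin of Pbdc1 and 5530601H04Rik 0.625 and Kdm6a 0.230, the latter at the 5.27 percentile of all bins. The members in neither class, Kdm6a and the Pbdc1 bin, were thus among the 3 least shared on cas. The classes were drawn from the WT and KO cas matrices together, so this follows in part from that choice. On mus, Eif2s3x gave 0.655, Pbdc1 with 5530601H04Rik 0.489, Mid1 0.470, Car5b 0.428, Utp14a 0.425, Ddx3x 0.369 and Kdm6a 0.255. Kdm5c had the lowest value, 0.112, at the 3.40 percentile, and at 100 kb it was again the lowest member, with 0.0240. Medians over the members were 0.845 on cas and 0.427 on mus, close to 0.848 and below 0.491 over all bins.

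Between mus and cas the profiles were more alike for several members than for most bins. Ddx3x gave 0.381 in WT, at the 99.0 percentile of all bins, and 0.282 in KO. Kdm6a gave 0.251 and 0.263, Kdm5c 0.149 and 0.260, and Eif2s3x 0.0699 and 0.254. Car5b gave 0.136 and 0.219, and the bin of Pbdc1 and 5530601H04Rik 0.137 and 0.183. In KO these 6 bins ranked between the 77.2 and 94.9 percentiles. The remaining members were unlike between the copies in KO, Utp14a with 0.131 in WT and -0.0755 in KO and Mid1 with -0.125 and -0.0648. The median over the 8 bins was 0.136 (WT) and 0.236 (KO), against 0.104 and 0.111 over all bins. At 100 kb all these values were smaller, and Kdm6a, with 0.128 and 0.0926, and Ddx3x in KO, with 0.101, ranked from the 92.6 to the 94.5 percentile.

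The position of the members relative to Dxz4 was followed by a side score, the mean correlation with bins on the gene's own side minus that with bins across Dxz4. At strictly equal distances it could be formed for 3 members, over 63 distances for Utp14a, 158 for Eif2s3x and 128 for the Pbdc1 and 5530601H04Rik bin. On mus Utp14a scored 0.103 in WT and 0.0474 in KO, Eif2s3x 0.0152 and 0.0260, and the Pbdc1 bin 0.00538 and 0.0398. On cas they were 0.255 and 0.180, -0.0219 and -0.0342, and -0.0288 and -0.0221. At strictly equal distances Utp14a thus correlated more with its own side than the others, on both copies, and less so in KO. With the mean of each distance subtracted, 7 members could be scored, Utp14a among them. On cas the highest member score was then 0.0335 in WT and 0.00941 in KO, well below the strict scores of Utp14a there. On mus 5 of the 7 were above 0 in WT and 6 in KO, against 66.7% and 64.3% of all bins. KO was below WT in 5 of 7 on mus, against 58.1%, and in 3 of 7 on cas, against 36.8%. Kdm5c was the exception in size, going from -0.0316 in WT, more alike to the far side, to 0.0257 in KO, a difference at the 99.0 percentile of all bins, and at 100 kb from -0.0139 to 0.00577 (99.2 percentile). That score rests on 69 bins across Dxz4, all at least 77.0 Mb away, and the score of Car5b on 22. Ddx3x had 0.0309 and 0.0210 on mus, Kdm6a 0.0332 and 0.0178, and Car5b -0.0394 and -0.0460.

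The boundary scores of most members were near those of all bins. The boundary score, which takes the mean correlation among bins up to 1 Mb to the left and to the right of a 100 kb bin and subtracts that across the bin, had a median over 7 members of 0.0144 in WT and 0.0137 in KO on cas, against 0.0123 and 0.0150 over all bins. On mus it was 0.00250 and 0.00343, against 0.00344 and 0.00387. Utp14a was the member that stood out on mus, with 0.0215 in WT and 0.0170 in KO, the 97.7 and 96.1 percentiles. Ddx3x stood out on cas, with 0.0490 and 0.0687, the 90.9 and 94.9 percentiles, and it had 0.00431 and 0.000352 on mus. Kdm5c had 0.0330 and 0.0325 on cas, and Kdm6a 0.00787 and 0.00932 on mus. The bin of Pbdc1 and 5530601H04Rik scored lowest in WT on both copies, at 0.000561 on cas and -0.00138 on mus.

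Other genes of the X chromosome were taken as lists for comparison on cas, where 39.1% of all bins and 73.3% of those with a WT score above 0 were lower in KO. Of 6 bins of further escape loci, 4 were lower in KO, with a median difference of -0.101: the actin-binding protein gene Shroom4 had -0.273 and Ftx -0.139, while the bins of the proteoglycan gene Bgn and of the noncoding RNA gene Firre were higher, by 0.0144 and 0.0900. Of 6 bins of silenced genes beside an escape gene or with a Y partner, 4 were lower, with a median of -0.0495, the lowest being Klhl15 at -0.0984 and the Smc1a and Iqsec2 bin at -0.0982, and the highest Rbmx at 0.0762 and Uba1 at 0.00101. The Zfx bin in this list is that of Eif2s3x, and the Smc1a and Iqsec2 bin holds the start of Kdm5c. Of 9 bins of other silenced genes, 7 were lower, with a median of -0.0272, from Rlim at -0.177 and Pdha1 at -0.0778 to Gla at 0.0197 and Fmr1 at 0.198. The escape-gene median of -0.0517 lay beside that of their silenced neighbours. The bin shared by Eif2s3x and Zfx, at -0.0511, is a middle value of both groups, so this likeness is partly built in. The ranges of the 3 lists overlapped that of the escape-gene bins.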

How the data were processed

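Hi-C of chromosome X was analysed from the 8 deposited matrices, covering both genotypes and alleles in bins of 250 kb and of 100 kb. The deposited unit is a score, the likeness of 2 bins' contacts as a correlation from -1 to 1, which the authors computed with the replicates of a genotype combined and the reads split by allele and filtered, per the file headers. Per the submitters' processing notes, cutadapt, Bowtie2, HOMER and Juicer were used on mm10, their versions not being stated there. How contacts were normalized and reads given to an allele, and the depth, is not given in the sources used here, so no interval could be formed. The files were read as Hi-C, as labels and headers have it, although the design text speaks of Xist binding. Bins with data in all 4 matrices of a size were kept, 588 of 683 and 1461 of 1707, with Python 3.11.15, numpy 2.4.6 and pandas 2.3.3. Compartment scores, side scores and profile similarities used pairs at least 2 Mb apart. Genes were placed with the RefSeq annotation of GRCm38.p6. Differences are KO minus WT with no test, and were counted by sign and beyond 0.05 on cas and 0.02 on mus. Named genes are the members, the coding genes of their own and adjacent bins, the closest bins in contact profile, and the comparison lists with the highest and lowest of each. The members, the lists and the cuts were chosen with earlier results of these data known. Scripts were tested on simulated data. Alternatives were the bin size, pair distance, class size and source, gene start instead of midpoint, each matrix brought to 1 SD, subtraction of distance means, window and flank sizes, and leaving out weak bins or each member. The distance-adjusted side score and the deviation from the line were added after seeing the data. HindIII sites per bin were not counted, and no expression data were used here.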

Additional observations from a re-analysis of the deposited data

Results flagged for a closer look

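In 4 escape-gene bins the compartment score of KO minus WT went in opposite directions on the copies at both bin sizes, higher in KO on mus and lower on cas. For Eif2s3x the 250 kb difference was 0.0353 on mus and -0.0511 on cas. For Kdm5c it was 0.0288 and -0.00757, for Car5b 0.0123 and -0.136, and for the bin of Pbdc1 and 5530601H04Rik 0.00748 and -0.0584. The difference between the copies was not tested, since each value comes from 1 matrix of combined replicates. All 4 bins lie right of Dxz4, where 77.2% of bins were higher in KO on mus at 250 kb. On cas 39.1% of all bins were lower at that size. The share of all bins with these opposite directions at both sizes was not counted.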

How the results depend on the processing

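No paired analysis was possible because the replicates of a genotype are combined in each matrix, and for the same reason no replicate could be left out. The median cas difference in compartment score, -0.0517, was -0.0260 with 100 kb bins and -0.0153 with the WT and KO matrices brought to a common SD, and as the deviation from the line through all bins it turned to 0.00376, with 4 of 8 bins lower, and to -0.0134 with 5 of 8 in 100 kb bins. The median mus difference, 0.00475, was 0.000238 at 100 kb, -0.00222 with classes of 10% of bins, which reverses it, 0.00753 with 30%, 0.00955 with classes from WT cas alone, 0.00874 by gene start, 0.00979 without the weakest 10% of bins, which left 7 members, and 0.0118 as the deviation from the line, or 0.00309 in 100 kb bins. Leaving out each escape bin in turn gave -0.0523 to -0.0511 on cas and 0.00202 to 0.00748 on mus, with 7 bins lower on cas each time and 2 to 3 on mus. The median side score difference over 3 bins was 0.0108 on mus and -0.0123 on cas, 0.000943 and -0.00272 at 100 kb, and -0.00661 and 0.00437, both reversed, over 7 bins with distance means subtracted. Leaving out bins gave -0.0223 to 0.0226 on mus and -0.0437 to -0.00279 on cas. The mean pair excess was 0.0414 (WT) and 0.0262 (KO) on cas at 100 kb, and on mus -0.00520 and 0.00116 at 100 kb and 0.00619 and 0.00219 by gene start, the last 3 of these with the sign turned, and -0.00299 in WT at a minimum of 5 Mb. Without single bins it ran from 0.0502 to 0.109 and 0.0268 to 0.0797 on cas and from -0.0147 to 0.0134 and -0.0114 to 0.00317 on mus. The boundary median on mus turned to -0.00274 and -0.00342 with a 500 kb window and was 0.00548 and 0.00735 with 2 Mb, where KO cas was 0.0209. Without single bins it was 0.00237 to 0.00341, 0.00215 to 0.00485, 0.0135 to 0.0158 and 0.0135 to 0.0151 in WT mus, KO mus, WT cas and KO cas. The median local step in that order, 0.0164, 0.0161, 0.0910 and 0.0564, was 0.00150, 0.00116, 0.0443 and 0.0274 at 100 kb. With 1 flanking bin it was 0.00675, 0.00431 and 0.0602 in WT mus, KO mus and WT cas, and by gene start 0.000403 and -0.0133 on mus, the KO value reversed. Without single bins it was 0.00972 to 0.0176, -0.00111 to 0.0177, 0.0839 to 0.116 and 0.0544 to 0.0771. Median profile similarity at 100 kb was 0.103 (WT and KO on mus), 0.563 (on cas), 0.0285 and 0.0477 (between the copies in WT and KO), and without single bins 0.425 to 0.428, 0.830 to 0.861, 0.136 to 0.137 and 0.219 to 0.254. Smaller bins hold fewer reads, and the cause of the other changes was not tested. Of the remaining values of group summaries under these alternatives, 79 kept their direction and size, and of those for single genes 102 did and 40 moved. For single genes a turned sign counted as reversed only where the main difference was beyond 0.05 on cas or 0.02 on mus, and 0 were. Smaller differences that turned sign, such as that of Ddx3x on cas at 100 kb, are among the 40. Depth is unknown, so differences this small on mus may lie within counting noise.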
